A study of Homo sapiens with 2 samples.

Results

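The genes that encode the proteins of the cytosolic ribosome were followed in Hep3B, an established line from a human liver carcinoma, after exposure to a Glehnia littoralis plant extract (GLE) and after the solvent dimethyl sulfoxide (DMSO). Members were chosen by symbol: RPL or RPS followed by a number and an optional A, X, Y1 or L, plus RPLP0, RPLP1, RPLP2 and RPSA, without pseudogenes and without the RPS6K kinases. The rule found 82 genes among the 43424 symbols of the count files. RPS4Y1, which is Y-linked, is not reported here, which left 81 genes, 49 of the large and 32 of the small subunit. Of these, 79 had at least 30 counts summed over the libraries, out of 11068 such genes in all, and the other 2 had no count at all.

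The question of the series is whether the extract has an action in these cells, and it compared 1 library from cells given GLE with 1 library from cells given DMSO. Both groups are wild type by their labels and were grown in the same medium with fetal bovine serum, penicillin and streptomycin. For each library 500 ng of total RNA was used with a Lexogen QuantSeq kit, which reads polyadenylated RNA near its 3′ end. A viability assay of 24 h with GLE at up to 500 µg/mL is described in the labels, whereas the sources used here do not give the dose and duration for the RNA samples. With 1 library per group, no test between the groups was possible, and every difference below describes these libraries alone. Ratios are GLE over DMSO, after scaling of the library sizes by the trimmed mean of M-values (TMM), and each carries an exact Clopper-Pearson 95% interval that covers counting error only.

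Each cytosolic ribosome holds a large subunit, which joins amino acids into a chain, and a small subunit, which reads the messenger RNA. Nearly all proteins of both subunits are needed in equal numbers, and their messenger RNAs are among the most abundant of dividing cells. Most of these messages begin with a run of pyrimidines, the terminal oligopyrimidine (TOP) motif, through which the kinase mTOR and the RNA-binding protein LARP1 are known to control their translation and stability. In hepatocytes, which export large amounts of plasma protein, ribosomes on the endoplasmic reticulum are plentiful.

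The GLE library held 3636351 counts over 16539 genes and the DMSO library 5618328 counts over 16505 genes, so that 3 counts correspond to 0.848 CPM in the GLE library and 0.519 CPM in the DMSO library. Genes of the mitochondrial genome took 24.6% of the GLE counts and 22.4% of the DMSO counts, and within it mitochondrial ribosomal RNA took 13.2% of the GLE counts and 8.52% of the DMSO counts. Markers of hepatocytes and hepatoma had counts for 10 of 10 genes, and their summed level was 5276 CPM in the GLE library, against 8426 CPM in the DMSO library. Leukocyte markers had counts for 4 of 5 genes with CD3E at 0, and LYZ held 1540 of their 1640 GLE counts and 2711 of their 2829 DMSO counts. Of 4 endothelial markers, VWF, CDH5 and KDR were at 0 in both libraries, and PECAM1 had 1 GLE count against 36 DMSO counts. Fibroblast and stellate cell markers had counts for 5 of 5 genes and summed to 67 GLE counts and 20 DMSO counts. The part of mitochondrial ribosomal RNA and of these markers in the ribosomal protein ratios was not tested.

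The start sites of the genes show the feature by which this family is known. In RefSeq promoter sequence of GRCh38.p14, available for 64 members, a window of 15 bases before and 15 bases from each listed start was searched on the transcribed strand for the longest run of C and T. For some genes with high and some with low ratios, these 30-base windows are printed 5′ to 3′, with the longest pyrimidine run in capitals. RPL23A and RPL30, among the highest, have no window here. RPL10 (chrX:154398362-154398391, plus strand), RPS9 (chr19:54200843-54200872, plus) and RPS12 (chr6:132814554-132814583, plus) had high GLE over DMSO ratios. RPL29 (chr3:51995881-51995910, minus), RPL6 (chr12:112411428-112411457, minus), RPL3 (chr22:39319609-39319638, minus), RPL12 (chr9:127451392-127451421, minus), RPS14 (chr5:150449725-150449754, minus) and RPS28 (chr19:8321481-8321510, plus) had low ones. RPS27L (chr15:63157463-63157492, minus) is a paralog whose window lacks a long run.
RPL10: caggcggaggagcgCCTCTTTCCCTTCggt
RPS9: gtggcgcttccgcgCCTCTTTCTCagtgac
RPS12: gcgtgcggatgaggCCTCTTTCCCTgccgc
RPL29: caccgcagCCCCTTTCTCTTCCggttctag
RPL6: tatttgtaTCCTCagtgaatcagaaccaga
RPL3: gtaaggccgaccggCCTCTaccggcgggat
RPL12: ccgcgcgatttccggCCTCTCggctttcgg
RPS14: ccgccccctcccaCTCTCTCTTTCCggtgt
RPS28: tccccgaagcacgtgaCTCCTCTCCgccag
RPS27L: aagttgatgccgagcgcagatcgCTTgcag

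Among the printed genes, a selection, those with high ratios had long runs and those with low ratios had both long and short ones. Windows not printed held runs of 12 bases in both RPS27A (ratio 1.496) and RPS16 (0.937), and of 4 in RPS29 (1.22). The longest run was 13 bases in RPL10, 11 in RPS12 and 10 in RPS9, against 14 in RPL29, 12 in RPS14, 9 in RPS28, 6 in RPL12 and 5 in RPL6 and in RPL3. A run of at least 8 pyrimidines was present in 31 of 39 large subunit genes (79.5%) and 20 of 25 small subunit genes (80.0%). The same was found in 1552 of 8860 other measured genes (17.5%), in 10 of 68 mitochondrial ribosomal protein genes (14.7%) and in 4 of 37 ribosome biogenesis genes (10.8%). Of 24 other TOP messages, followed below, 17 had promoter sequence, and 13 of these had such a run (76.5%). A C at a listed start followed by at least 4 pyrimidines was present in 46 of the 64 members (71.9%) and in 7.22% of the other measured genes. Of the 17 TOP messages with promoter sequence, 16 had it (94.1%). Across 63 measured members with a window, the length of the run and the log2 ratio had a Pearson r of 0.20 and a Spearman rho of 0.24, a description over genes that share the same 2 libraries.

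As a family, ribosomal protein genes had slightly higher scaled counts in the GLE library. The median log2 ratio was 0.23 over the 79 measured members, a ratio of 1.17, against a median of -0.04 over all 11068 measured genes. The log2 ratio was above 0 for 69 members and below 0 for 10. The members together held 365046 of the GLE counts, 10.0% (10.01 to 10.07), and 502776 of the DMSO counts, 8.95% (8.93 to 8.97). Outside the mitochondrial genome, their share was 13.3% of the GLE counts and 11.5% of the DMSO counts. The ratio of the summed counts was 1.19 (1.18 to 1.19). In a bulk sample, more cells of a kind and more RNA per cell cannot be told apart.

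The counting interval lay wholly above 1 for 59 of the 79 members (74.7%), where 27.7% of all measured genes had such an interval. It lay wholly below 1 for 7 members (8.86%), against 30.1% of all measured genes, and included 1 for 13. Members are counted deeply, which narrows their intervals, so genes with at least 1000 summed counts are a closer comparison. Among the 1488 such genes, 37.6% had the interval above 1 and 37.7% below 1, and 78 of them were members with 59 above and 7 below. The other 1410 genes of this depth had a median log2 ratio of -0.03, with 501 intervals above 1 (35.5%) and 554 below (39.3%). Scaled by total counts in place of TMM, the split of the members was 48 above and 15 below, with a median log2 ratio of 0.15.

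Most differences were under 1.5-fold. At least 1.5-fold higher were 6 members, among them RPL23A, RPL10, RPL30, RPS9 and RPS12, and 0 were at least 1.5-fold lower, whereas 19.3% of all measured genes were that much higher and 21.9% that much lower. Among genes with at least 1000 counts, those shares were 9.88% and 10.1%. RPL23A alone reached 2-fold, a size that 9.54% of all measured genes exceeded upward and 10.5% downward. The interquartile range of the members' log2 ratios was 0.33 wide, from 0.07 to 0.40, against 0.59 for the 1410 other genes of at least 1000 counts and 0.93 for all measured genes. The scaled levels of the members in the GLE and the DMSO library had a Pearson r of 0.985 and a Spearman rho of 0.967 on the log2 CPM scale over the 79 genes, which share the annotation and the read position.

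**Figure D1:**
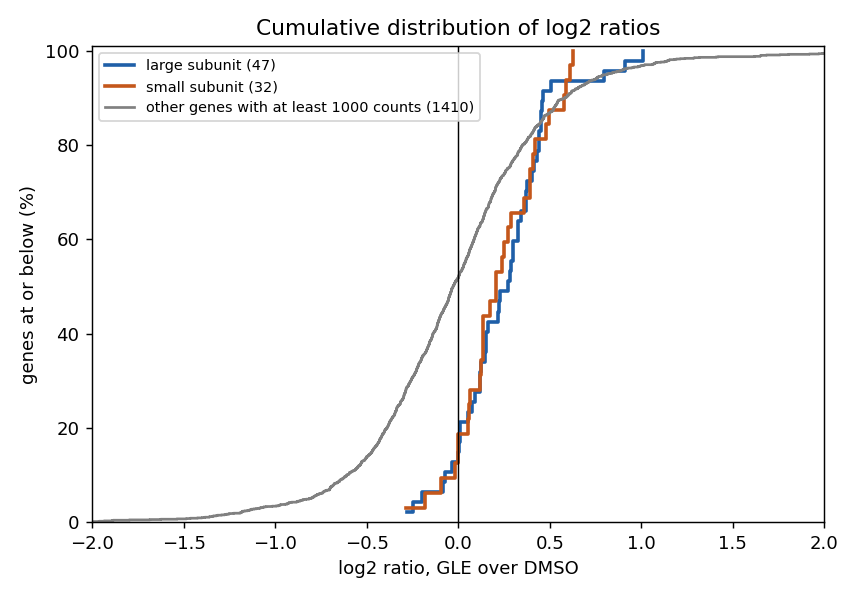
Cumulative share of genes (percent, vertical axis) at or below each log2 ratio of GLE over DMSO (horizontal axis) for large subunit genes (47), small subunit genes (32) and the 1410 other genes with at least 1000 counts. Both subunit curves lie to the right of the grey curve through the middle of the range, with medians of 0.27 and 0.21 against -0.03, and they are steeper.

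**Figure D2:**
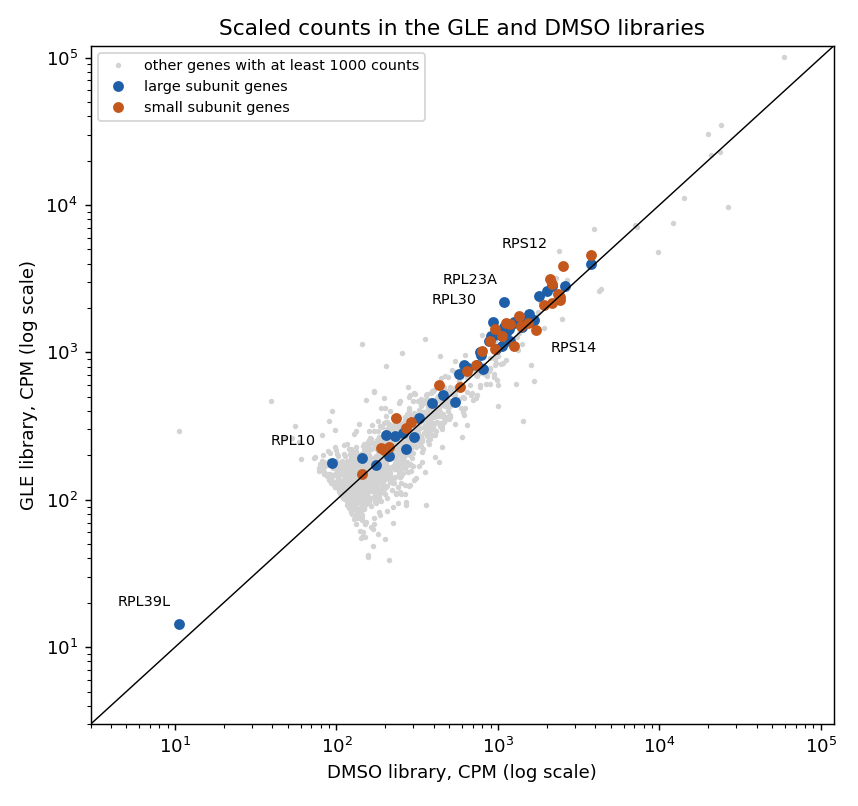
Scaled level (CPM) of each gene in the GLE library (vertical, log scale) against the DMSO library (horizontal, log scale), with the line of equal levels; grey points are the other genes with at least 1000 counts. The ribosomal protein genes form a narrow band mostly just above the line, with RPL23A, RPL30 and RPL10 above it and RPS14 below it.

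The subunits differed little from each other. Large subunit genes had a median log2 ratio of 0.27 with an interquartile range from 0.08 to 0.41 (47 genes), and small subunit genes of 0.21 with an interquartile range from 0.06 to 0.40 (32 genes). The difference of 0.06 was smaller than the spread within either subunit. The interval was above 1 for 35, below 1 for 4 and included 1 for 8 large subunit genes. For small subunit genes it was above 1 for 24, below 1 for 3 and included 1 for 5. The shares above and below 1 were 74.5% and 8.51% in the large and 75.0% and 9.38% in the small subunit. Among all genes with at least 1000 counts they were 37.6% and 37.7%, and among all measured genes 27.7% and 30.1%. Of the members at least 1.5-fold higher, 3 belonged to each subunit.

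Within a library, the balance of the subunits needs no scaling. Large over small subunit counts stood at 1.198 (1.190 to 1.206) in the GLE library and at 1.178 (1.171 to 1.184) in the DMSO library. Without RPL23A, left out after its value was seen because its ratio is the highest, the balance was 1.151 (1.144 to 1.159) in the GLE library and 1.151 (1.144 to 1.157) in the DMSO library. No other member was left out in this way. Reads lack molecular identifiers and can be shared with other genes, so these values do not give the number of molecules per subunit.

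**Figure D3:**
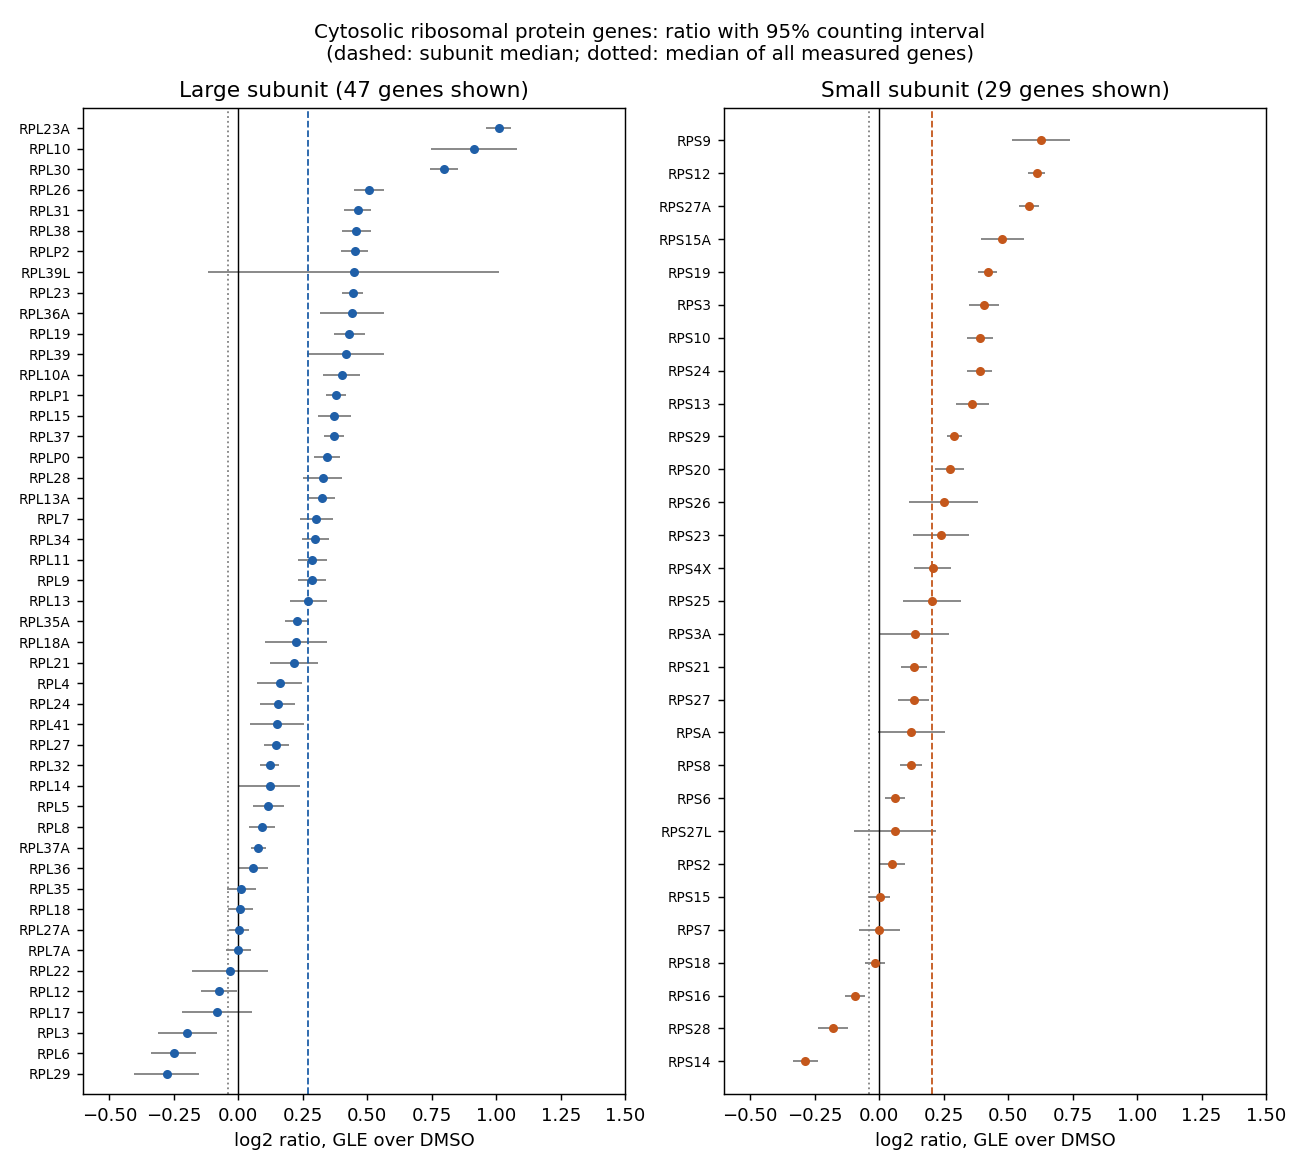
Log2 ratio of GLE over DMSO (horizontal axis) with its 95% counting interval for the measured members reported by name, sorted within the large subunit (left) and the small subunit (right). Dashed lines mark the subunit medians of 0.27 and 0.21, and the dotted line marks -0.04, the median of all measured genes; RPL23A, RPL10 and RPL30 stand apart at the top of the large subunit, and RPL39L, with 112 counts in all, has the widest interval.

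The highest ratio in the family belonged to RPL23A, a protein at the mouth of the exit tunnel where the signal recognition particle docks. RPL23A lies on chromosome 17 (28719985 to 28724359, GRCh38) and had 7756 GLE counts, against 6297 DMSO counts, although the GLE library was the shallower. Its ratio was 2.01 (1.95 to 2.08), and it made up 2.12% of the members' GLE counts and 1.25% of their DMSO counts. RPL10, which joins the large subunit late and reaches towards the peptidyl transferase centre, had 627 GLE counts and 544 DMSO counts, a ratio of 1.88 (1.68 to 2.12). RPL30, which also binds the element that directs selenocysteine insertion, had 5691 GLE counts and 5353 DMSO counts, a ratio of 1.74 (1.67 to 1.80). These are the large subunit genes with more raw counts in the GLE than in the DMSO library.

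The next large subunit genes were nearer to the median. RPL26, a tunnel protein known as the substrate of UFMylation, had 4553 GLE counts and 5233 DMSO counts, a ratio of 1.42 (1.37 to 1.48). RPL31, another protein at the tunnel exit, had 5296 GLE and 6282 DMSO counts, a ratio of 1.38 (1.33 to 1.43). RPL38, known in mice for its part in the translation of Hox messages, had 4617 GLE and 5494 DMSO counts, a ratio of 1.37 (1.32 to 1.43). The intervals of RPL26, RPL31 and RPL38 overlap each other.

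At the low end of the large subunit, RPL29, also described as a heparin-binding protein, had 785 GLE counts and 1555 DMSO counts, a ratio of 0.825 (0.756 to 0.899). RPL6 had 1620 GLE and 3146 DMSO counts, a ratio of 0.841 (0.792 to 0.894). RPL3, whose extension reaches the peptidyl transferase centre, had 937 GLE and 1755 DMSO counts, a ratio of 0.872 (0.805 to 0.945). RPL12, at the base of the stalk, was the other large subunit gene with its interval below 1, with 2708 GLE and 4658 DMSO counts and a ratio of 0.950 (0.906 to 0.996). For RPL17, which lines the tunnel, and RPL22, which binds a viral RNA in Epstein-Barr virus infection, the intervals included 1, with ratios of 0.944 (0.860 to 1.04) and 0.979 (0.884 to 1.08). The 35 large subunit genes between these named ones ranged from 1.00 for RPL7A to 1.37 for RPLP2, with 29 intervals above 1, 0 below and 6 that included 1.

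In the small subunit, RPS9, which stands at the entry of the messenger RNA channel, had 1271 GLE counts and 1344 DMSO counts, a ratio of 1.55 (1.43 to 1.67). RPS12, a protein of the head, had 13723 GLE and 14684 DMSO counts, a ratio of 1.53 (1.49 to 1.56). RPS27A, made as a fusion with ubiquitin, had 11130 GLE and 12161 DMSO counts and a ratio of 1.496 (1.46 to 1.53), just under 1.5-fold. The intervals of RPS9, RPS12 and RPS27A overlap. RPS15A had 2112 GLE and 2478 DMSO counts, a ratio of 1.39 (1.31 to 1.48).

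RPS14, a platform protein whose partial loss is known from a myelodysplastic syndrome, was the lowest member of the family. It lies on chromosome 5 (150442635 to 150449739) and had 4996 GLE counts and 9956 DMSO counts, a ratio of 0.820 (0.792 to 0.848). RPS28 had 3903 GLE and 7219 DMSO counts, a ratio of 0.883 (0.850 to 0.919). RPS16, whose tail touches the transfer RNA in the P site, had 8003 GLE and 13955 DMSO counts, a ratio of 0.937 (0.912 to 0.963). The interval included 1 for RPS18 with a ratio of 0.990, for RPS7 with 1.00 and for RPS15 with 1.00. The 20 small subunit genes in between ranged from 1.04 for RPS2 to 1.34 for RPS19, with 18 intervals above 1, 0 below and 2 that included 1.

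Sorted by place in the ribosome, members of the same neighbourhood did not share a ratio. The P stalk recruits the elongation factors. In it, RPLP0 had 5687 GLE and 7314 DMSO counts and a ratio of 1.27 (1.23 to 1.32), RPLP1 9297 and 11687 counts and 1.30 (1.26 to 1.34), and RPLP2 5320 and 6358 counts and 1.37 (1.32 to 1.42). RPL12, at the base of the stalk, stood apart at 0.950, and its interval overlaps none of theirs. In the 5S ribonucleoprotein, which binds MDM2 when ribosome assembly fails, RPL5 had 3722 GLE and 5609 DMSO counts and a ratio of 1.08 (1.04 to 1.13). Its partner RPL11 had 4602 GLE and 6164 DMSO counts and a ratio of 1.22 (1.17 to 1.27).

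The exit tunnel ranged from RPL17 at 0.944 to RPL23A at 2.01. Its 9 genes had a median log2 ratio of 0.42, with 6 intervals above 1 and 0 below. Beside RPL23A, RPL26 and RPL31, the tunnel genes RPL19 and RPL39 had ratios of 1.35 (1.29 to 1.40) and 1.33 (1.20 to 1.48), and RPL4 one of 1.12 (1.05 to 1.19). RPL35, RPL22 and RPL17 had intervals that included 1. The 3 genes near the peptidyl transferase centre went separate ways, with RPL10 at 1.88, RPL8 at 1.07 (1.03 to 1.10) and RPL3 at 0.872. The 29 measured large subunit genes outside these places had a median of 0.23, with 22 intervals above 1 and 2 below.

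In the small subunit, the 5 genes of the messenger RNA channel had a median of 0.24, with 4 intervals above 1 and 0 below. RPS9 was the highest of them, followed by RPS3 at 1.33 (1.27 to 1.38), RPS23 at 1.18 (1.10 to 1.27) and RPS2 at 1.04 (1.00 to 1.07), with RPS15 at 1.00. The 14 head genes had a median of 0.28, with 10 intervals above 1 and 2 below, those of RPS16 and RPS28. The 7 platform genes had a median of 0.14, with 4 above 1 and 2 below, those of RPS14 and RPS28. RPS3 and RPS15 are counted in both the channel and the head, and RPS28 is counted in both the head and the platform. Each place except the platform, with 57.1%, had at least 66.7% of its intervals above 1. The places are parts of a family with 74.7% above 1 and 8.86% below, and some hold only 2 or 3 genes. Among all genes with at least 1000 counts the shares were 37.6% and 37.7%, and among all measured genes 27.7% and 30.1%.

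**Figure D4:**
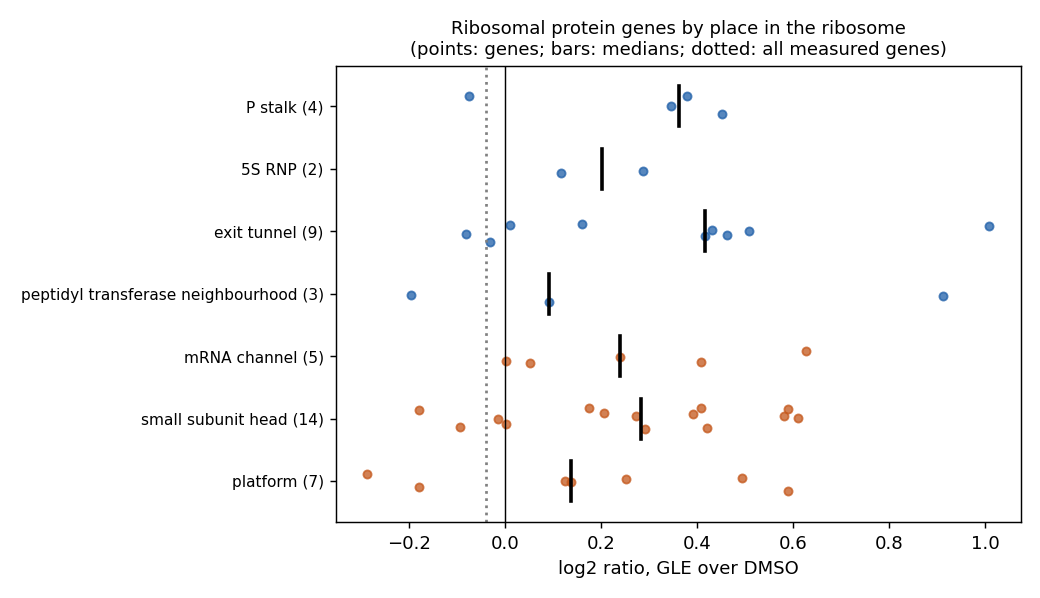
Log2 ratio of GLE over DMSO (horizontal axis) for the genes of each place in the ribosome, large subunit in blue and small subunit in orange, with bars at the medians and a dotted line at -0.04, the median of all measured genes. Medians run from 0.09 near the peptidyl transferase centre to 0.42 in the exit tunnel, and within most places genes lie on both sides of 0.

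Genes mutated in Diamond-Blackfan anaemia, in which too little of a ribosomal protein impairs red cell formation, lay in the middle of the family. The 9 listed genes, among them RPS19, RPS24, RPL35A, RPL5, RPL11, RPS7, RPS26 and RPS10, had a median log2 ratio of 0.25, with 8 intervals above 1 (88.9%) and 0 below, against 74.7% above and 8.86% below in the family and 27.7% and 30.1% of all measured genes. RPS19, the gene most often affected, had 10226 GLE counts and 12481 DMSO counts, a ratio of 1.34 (1.30 to 1.37).

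The most counted members kept nearly the same share of the family. RPS29, RPL37A, RPS12, RPL32, RPS27A, RPS19, RPL37, RPS6, RPL27A and RPS18 together held 30.4% of the members' GLE counts and 30.2% of their DMSO counts. RPS29 had 16242 GLE and 21688 DMSO counts and a ratio of 1.22 (1.20 to 1.25), and RPL37 9936 and 12550 counts and a ratio of 1.29 (1.26 to 1.33). RPL32 had 9962 GLE and 14954 DMSO counts, a ratio of 1.09 (1.06 to 1.12). RPL37A had 14159 GLE and 21919 DMSO counts and a ratio of 1.06 (1.03 to 1.08), which was 0.998 when scaled by total counts. RPS6, the substrate of the S6 kinases, had 8760 GLE and 13700 DMSO counts and a ratio of 1.04 (1.02 to 1.07), which was 0.988 when scaled by total counts. RPL27A had 8502 GLE and 13869 DMSO counts and a ratio of 1.00 (0.975 to 1.03).

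The paralogs within the rule differed in whether they were counted at all. RPL3L, a heart and skeletal muscle form of RPL3, and RPL10L, a testis form of RPL10, had 0 counts in both libraries, which allows up to 0.848 CPM in the GLE library and 0.519 CPM in the DMSO library. RPL39L, a testis-enriched form of RPL39, had 51 GLE counts and 61 DMSO counts, a ratio of 1.37 (0.923 to 2.01), and RPL39 had 681 GLE and 834 DMSO counts. RPS27L, a paralog of RPS27 that p53, which Hep3B cells are known to lack, can induce and whose start window holds no pyrimidine run over 3 bases, had 532 GLE and 833 DMSO counts, a ratio of 1.04 (0.934 to 1.16). RPS27 itself, with a run of 9, had 3716 GLE and 5535 DMSO counts, a ratio of 1.10 (1.05 to 1.14). The intervals of RPS27L and RPS27 overlap.

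Of 6 ribosomal genes that the symbol rule leaves out, RPL7L1, a paralog of RPL7 known from precursors of the large subunit, was the lowest with 278 GLE counts and 641 DMSO counts, a ratio of 0.709 (0.613 to 0.817). RPL22L1, a paralog of RPL22, had a ratio of 0.968 (0.856 to 1.09), RPL36AL of 1.17 (0.994 to 1.38) and RPL26L1 of 1.31 (1.06 to 1.61). FAU, which joins a ubiquitin-like protein to RPS30, had 5262 GLE and 8245 DMSO counts and a ratio of 1.04 (1.01 to 1.08). RPS27A, the ubiquitin fusion within the rule, was above it at 1.496.

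Ribosomal protein genes often carry small nucleolar RNA genes in their introns. By GENCODE release 29, 28 of the measured members held at least 1 and had a median log2 ratio of 0.25, against 0.23 for the 51 without. In the large subunit the medians were 0.22 for the 19 hosts and 0.29 for the 28 others, and in the small subunit 0.27 for the 9 hosts and 0.21 for the 23 others. RPL23A holds SNORD42A, SNORD42B, SNORD4A and SNORD4B, RPL10 holds SNORA70, and RPS12 holds SNORA33, SNORD100 and SNORD101. Of the genes with low ratios, RPL3 holds SNORD43, SNORD83A and SNORD83B, and RPL12 holds SNORA65. No such gene lies inside RPS14, RPL29, RPL6 or RPS9.

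Some counts are uncertain because reads can be shared with other genes, and the sources used here do not give the strand setting of the counting. Exons of 29 measured members overlap exons of a gene on the opposite strand. Among them are RPL23A with TLCD1, RPL10 with DNASE1L1, RPS27A with CLHC1, RPS28 with NDUFA7 and KANK3, and RPL6 with PTPN11, and also RPL30 and RPS9 with transcripts known by clone names alone. The 42 members whose exons overlap none on either strand had a median log2 ratio of 0.24, with 31 intervals above 1 and 5 below, and their highest ratio was 1.53, that of RPS12. The 29 with an overlap on the opposite strand had a median of 0.14, with 20 above and 2 below. Of all genes with at least 1000 counts, 37.6% had the interval above 1 and 37.7% below, and of all measured genes 27.7% and 30.1%.

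Of the 79 measured members, 76 have pseudogenes under their own name in GENCODE, with the most, 91, for RPL23A. The files list such pseudogenes for 20 measured members. Their counts came to at most 2.83% of the parent's, for RPS15A, and adding them left the ratio of RPL23A at 2.01 (1.94 to 2.08). Only 6 pseudogenes of RPL23A were listed, with 17 GLE and 20 DMSO counts, so this addition could hardly change its ratio. Reads left uncounted because they match several genes would be missing from both parent and pseudogene, and their part was not tested. Across the 79 members, the log2 ratio and the number of pseudogenes had a Pearson r of 0.13 and a Spearman rho of 0.01. With transcript length the values were 0.03 and 0.13, with transcript GC content -0.11 and -0.11, and with summed counts 0.02 and 0.01.

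Other messages of the TOP class lay on both sides of 1. Of 24 translation factors and related genes, 12 had the interval above 1 (50%) and 5 below (20.8%), against 27.7% and 30.1% of all measured genes. Most of the 24 had at least 1000 counts, and among all genes of that depth the shares were 37.6% and 37.7%. The median log2 ratio of the 24 was 0.19. EIF4A2, an initiation helicase, had 1417 GLE counts and 1240 DMSO counts, a ratio of 1.87 (1.73 to 2.02). HNRNPA1, a splicing regulator, stood at 1.45 (1.32 to 1.58) and EIF3H, an initiation factor subunit, at 1.38 (1.26 to 1.52). EEF1A1, the elongation factor that brings transfer RNA to the ribosome, had 260 GLE and 676 DMSO counts, a ratio of 0.628 (0.543 to 0.726). Its level was 73.5 CPM in the GLE and 117 CPM in the DMSO library, against 3101 and 2666 CPM for EEF2, another elongation factor of the list. Whether reads of EEF1A1 went uncounted because they match other genes was not tested, so its ratio is uncertain. EIF2S3, a subunit of the factor that delivers the initiator transfer RNA, stood at 0.662 (0.589 to 0.742) and EEF1B2, the exchange factor of EEF1A1, at 0.724 (0.675 to 0.775). NAP1L1, a histone chaperone, stood at 0.825 (0.778 to 0.873) and PABPC1, the poly(A)-binding protein, at 0.945 (0.906 to 0.987). These 2, named after their values were seen, were the others with the interval below 1. FAU is among the 24.

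Non-coding host RNAs of small nucleolar RNAs, which are also known to start with TOP motifs, had larger ratios. The pyrimidine runs at their starts were not summarised here, and the list was chosen with earlier results of these data known. The 9 listed had a median log2 ratio of 0.87, with 9 intervals above 1, where 27.7% of all measured genes had such an interval. SNHG7 had 597 GLE and 285 DMSO counts, a ratio of 3.42 (2.97 to 3.96). EPB41L4A-AS1 had 242 GLE and 142 DMSO counts, a ratio of 2.78 (2.25 to 3.45), and ZFAS1 1744 and 1143 counts, a ratio of 2.49 (2.31 to 2.69). The lowest were GAS5, SNHG8 and SNHG29 with 1.11 (1.05 to 1.17), 1.35 (1.22 to 1.49) and 1.38 (1.30 to 1.47).

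Factors that build ribosomes had lower ratios than the ribosomal proteins. The 45 listed biogenesis genes had a median log2 ratio of -0.10, with 10 intervals above 1 (22.2%) and 19 below (42.2%), against 27.7% and 30.1% of all measured genes. RRS1, which brings in the 5S ribonucleoprotein, had 17 GLE counts and 109 DMSO counts, a ratio of 0.255 (0.143 to 0.427). POLR1A, the largest subunit of RNA polymerase I, had 49 GLE and 244 DMSO counts, a ratio of 0.328 (0.236 to 0.448). NOP56, a core protein of box C/D small nucleolar particles, had 812 GLE and 2599 DMSO counts, a ratio of 0.511 (0.471 to 0.553). RIOK2, a kinase of late small subunit assembly, had 144 GLE and 75 DMSO counts, a ratio of 3.14 (2.36 to 4.20). RRN3, the initiation factor of RNA polymerase I, stood at 2.67 (2.22 to 3.21) and RPF2, the partner of RRS1, at 1.86 (1.64 to 2.12). RRS1 and RPF2, which work as a pair, thus lay on opposite sides of 1.

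Of 11 regulators of TOP messages and of the response to ribosome stress, 3 had the interval above 1 (27.3%) and 4 below (36.4%), near the 27.7% and 30.1% of all measured genes, with a median of -0.16. The lowest with at least 100 counts were RPTOR, the scaffold of mTOR complex 1, at 0.443 (0.302 to 0.634), MDM2 at 0.700 (0.604 to 0.808) and MTOR at 0.814 (0.661 to 0.999). The highest were ZNF598, a sensor of collided ribosomes, at 1.67 (1.33 to 2.09), TSC1, an inhibitor of mTOR complex 1, at 1.45 (1.18 to 1.78), and RPS6KB2, an S6 kinase, at 1.30 (1.12 to 1.52). MYC, which drives ribosome production and had under 100 counts, stood at 14 GLE and 62 DMSO counts and a ratio of 0.369 (0.191 to 0.667). LARP1, like MYC named after its values were seen, had 1145 GLE and 1843 DMSO counts and a ratio of 1.02 (0.942 to 1.09).

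The proteins of the mitochondrial ribosome, a separate particle whose protein genes are nuclear, were centred on the median of all measured genes. Of 75 measured genes, 26 had the interval above 1 (34.7%) and 20 below (26.7%), against 27.7% and 30.1% of all measured genes. The median log2 ratio of these 75 was -0.04. The interquartile range of their log2 ratios was 0.60 wide, against 0.33 for the cytosolic members, and their counts are lower. The highest were MRPL39 at 3.11 (2.10 to 4.65), MRPS22 at 2.05 (1.69 to 2.50) and MRPL18 at 2.03 (1.75 to 2.35). MRPS27 at 0.469 (0.375 to 0.584), MRPL17 at 0.534 (0.383 to 0.735) and MRPS12 at 0.612 (0.519 to 0.720) were the lowest.

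**Figure D5:**
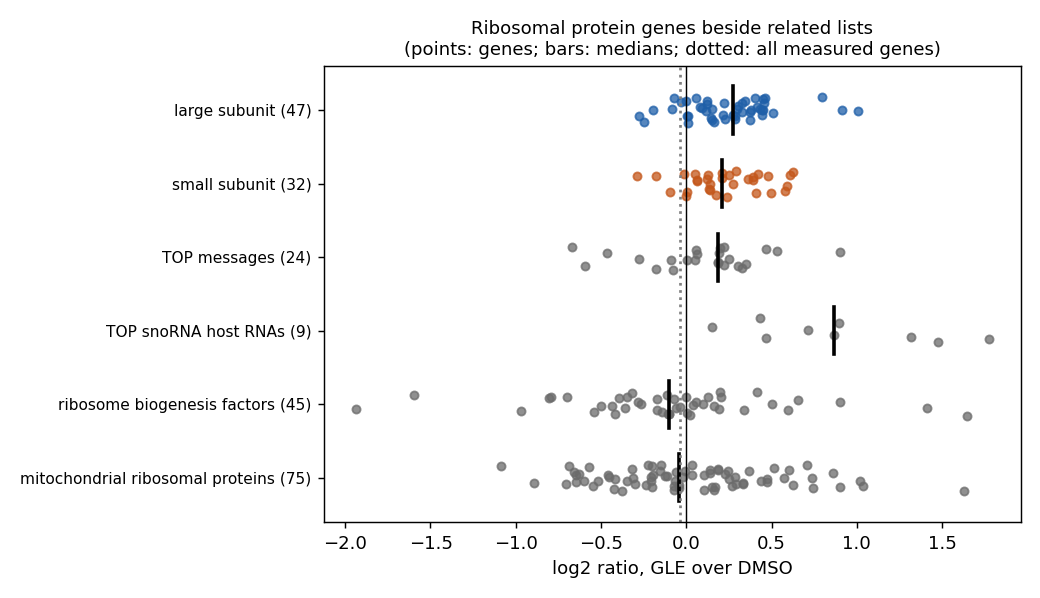
Log2 ratio of GLE over DMSO (horizontal axis) for large and small subunit genes beside TOP messages, TOP small nucleolar RNA host RNAs, ribosome biogenesis factors and mitochondrial ribosomal protein genes, with the number measured in brackets, bars at the medians and a dotted line at -0.04, the median of all measured genes. The cytosolic ribosomal protein genes form a tight cloud around 0.27 and 0.21, the host RNAs sit around 0.87, and the biogenesis and mitochondrial lists spread widely around -0.10 and -0.04.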

How the data were processed

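Each library came as a file of raw counts for gene symbols, deposited by the authors as whole numbers without normalization; 0 rows name no gene. Per the submitters' processing notes, reads were handled with fastp, STAR and HTSeq on GRCh38; the sources used here do not give tool versions, gene annotation or strand setting. Members, companion lists and alternatives were chosen with earlier results of these data known. Library sizes were scaled by TMM in edgeR 4.0.16 (R 4.3.3), with factors of 0.972 for GLE and 1.03 for DMSO. Ratios came from scaled counts, with Clopper-Pearson 95% intervals of the GLE share of a gene's counts (SciPy 1.17.1, Python 3.11.15). Intervals and the floor of 3 counts cover counting error only, since reads lack molecular identifiers and so are not independent molecules. Log2 ratios had 0.5 added to each count, and genes with at least 30 summed counts were called measured. Named were the 6 highest and 6 lowest ratios of each subunit among members with at least 100 counts, the 10 most counted members, P stalk, 5S ribonucleoprotein and paralog genes, genes outside the rule, and 3 genes at each end of every companion list; other members appear within their role list. A few genes are left unnamed here but stay in the counts and medians. Of the symbols, 42739 matched the RefSeq table of GRCh38.p14, which gave positions and start sequences; where a gene has several starts, that with the longest run was used. Transcripts, small nucleolar RNA genes, overlaps and pseudogenes came from GENCODE release 29. The code was tested on simulated data. Alternatives covered scaling (DESeq2 1.42.0 size factors among them), filters, added count, thinning, pseudogenes and membership. Removal of a GC trend (statsmodels 0.14.6, lowess span 0.3) and leaving out RPL23A were added after seeing the data. Figures were drawn with matplotlib 3.10.9.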

Additional observations from a re-analysis of the deposited data

How the results depend on the processing

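With 1 library per group, differences between cultures and any action of the extract cannot be told apart, and no p-value is given. No paired analysis was possible because each group holds 1 library. The median log2 ratio stayed above 0 under 15 alternatives for the large subunit (0.19 to 0.32) and all members (0.15 to 0.26) and under 14 for the small subunit (0.13 to 0.25). Under 15 alternatives, the difference between subunits ran from 0.02 to 0.08, and under 14 the number of members with the interval above 1 ran from 48 to 64. With total-count scaling, 9 large and 6 small subunit genes, 15 in all, had the interval below 1, the median was 0.15, 3 genes were at least 1.5-fold and 0 at least 2-fold higher, and RPL37A and RPS6 changed side at 0.998 and 0.988. Upper-quartile scaling, and library sizes without mitochondrial genes and the 20 most counted genes, also left 0 genes at 2-fold. With a GC trend removed, chosen after seeing the data, 2 large subunit genes and 4 members in all were below 1, and RPS16 changed side at 1.02. Without RPL23A, also chosen afterwards, large over small subunit counts were 1.15 in the GLE library and 1.15 in the DMSO library. The causes of these changes were not tested. Of the ratios of 38 named genes under the alternatives, 291 stayed within their counting interval, 48 moved beyond it, and 3 whose interval excluded 1 changed side. The shallower GLE library, with 3636351 counts, limits the precision of low members such as RPL39L.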
